A study of Mus musculus with 24 samples.

Results

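The 92 nuclear-encoded genes of the mitochondrial respiratory chain and ATP synthase were described in RNA from the mouse hippocampus. They are the symbols of the count table that begin with Nduf, Sdh, Uqcr, Cox4, Cox5, Cox6, Cox7, Cox8 or Atp5, without pseudogene, related-sequence and opposite-strand symbols, and with at least 240 counts summed over all libraries. Of 94 such symbols Cox8c had no count and Cox7b2 had 229, while the lowest symbol inside the limit was Cox8b with 1086, so 92 of 24062 listed genes were members. All 92 also passed the filter on low counts, which left 16313 genes. They comprise 43 genes of complex I (36 subunits and 7 Ndufaf assembly factors), 6 of complex II (with 2 assembly factors), 8 of complex III, 16 of complex IV, the pair Ndufa4 and Ndufa4l2, and 17 with Atp5 symbols. A pair of the Atp5 symbols, Atp5s and Atp5sl, are named for the synthase but do not encode its subunits.

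The mice were C57BL/6 animals in 4 groups, and the study asked how loss of the interleukin-1 receptor IL-1R1 from neurons alters the effect of social defeat stress by paired fighting. There were 5 libraries of knockout (KO) mice after stress, 6 of wild-type (WT) mice after stress, 6 of KO control mice and 7 of WT control mice. The labels name neither the Cre driver nor the age of the mice, the duration of stress or the time of tissue collection, and nothing in them ties libraries to individual animals, so p-values measure only the spread between libraries, which may be partly technical. The targeted gene Il1r1 stood at 4.4 ± 1.78 CPM (the read count scaled to library size) in the KO libraries and 4.37 ± 1.75 CPM in the WT libraries (SD, n = 11 and 13), so these counts from whole tissue do not check the genotype labels. Total counts ran from 25711872 to 35148198 per library.

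The libraries also fall into a high-numbered class of 13 and a low-numbered class of 11, which holds KO stress 1 and 2, WT stress 1 and 2, KO control 1 to 4 and WT control 1 to 3. The labels call neither class a batch. The boundary was drawn from an earlier look at Rn45s, a transcript of the ribosomal RNA precursor, which took 4107 to 8786 CPM in high-numbered and 24240 to 50450 CPM in low-numbered libraries. In the high-numbered class, thalamic marker transcripts were highest in KO stress 3, KO stress 5 and WT stress 5 (1019, 778 and 962.5 CPM summed over 12 genes, against at most 301 CPM in the other 10). Over both classes, choroid plexus transcripts varied between libraries of every group. Among high-numbered libraries alone they summed to 31.8 and 38.3 CPM in KO control and 802 to 2070 CPM in KO stress libraries.

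Electrons from NADH enter the chain at complex I and those from succinate at complex II, pass through complex III to complex IV, and there reduce oxygen, while the proton gradient built on the way drives ATP synthase. Most subunits are encoded in the nucleus and imported into mitochondria, and a few core subunits are encoded by mitochondrial DNA. Neurons depend heavily on this pathway for firing and synaptic transmission. Promoters of many of these genes are known to bind the factors NRF1, the ETS protein NRF2 (GABP), YY1 and estrogen-related receptors. For the mitochondrially encoded subunits 26 symbols were looked for, which include alternative names of the same gene. None was among the genes tested, so these subunits are not analysed here.

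The promoters of 6 members are shown because they span both how closely members followed each other across the libraries, described further on, and which motifs they hold: Atp5h, Ndufs7 and Cox6a1 followed the other members, whereas the assembly factor Ndufaf4, Sdha and the rare muscle isoform Cox8b did not. They were picked by hand after these values were seen. Each is the window from 250 bases before to 50 bases after the RefSeq start of transcription, build GRCm38.p6, written 5′ to 3′ on the strand of the gene. Capitals mark matches, on either strand, to GCGCATGCG (NRF1), CCGGAAG (ETS), AAGATGGCG (YY1) or CAAGGTCA (estrogen-related receptor). The windows lie at chr11:115419870-115420169 (minus strand) for Atp5h, chr10:80249199-80249498 (plus) for Ndufs7, chr5:115348909-115349208 (minus) for Cox6a1, chr4:24897833-24898132 (plus) for Ndufaf4, chr13:74350191-74350490 (minus) for Sdha and chr7:140900397-140900696 (minus) for Cox8b.
Atp5h: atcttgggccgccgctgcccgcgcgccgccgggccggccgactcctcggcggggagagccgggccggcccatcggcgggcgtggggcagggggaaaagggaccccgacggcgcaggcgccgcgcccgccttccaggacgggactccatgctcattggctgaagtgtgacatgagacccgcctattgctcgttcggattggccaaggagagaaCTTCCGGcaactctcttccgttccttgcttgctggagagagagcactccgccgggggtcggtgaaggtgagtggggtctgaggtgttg
Ndufs7: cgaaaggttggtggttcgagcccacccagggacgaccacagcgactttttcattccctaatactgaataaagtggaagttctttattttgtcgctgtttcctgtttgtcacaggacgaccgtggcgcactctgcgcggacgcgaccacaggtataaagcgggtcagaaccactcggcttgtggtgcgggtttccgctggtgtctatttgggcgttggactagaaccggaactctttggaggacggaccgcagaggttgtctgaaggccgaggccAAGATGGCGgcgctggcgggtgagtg
Cox6a1: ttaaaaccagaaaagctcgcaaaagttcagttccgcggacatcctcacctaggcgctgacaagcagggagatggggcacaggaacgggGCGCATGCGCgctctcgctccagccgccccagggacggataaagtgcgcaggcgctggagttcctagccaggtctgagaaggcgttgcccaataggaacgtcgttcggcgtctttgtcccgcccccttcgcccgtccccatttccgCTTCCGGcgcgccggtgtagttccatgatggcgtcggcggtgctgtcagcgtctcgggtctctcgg
Ndufaf4: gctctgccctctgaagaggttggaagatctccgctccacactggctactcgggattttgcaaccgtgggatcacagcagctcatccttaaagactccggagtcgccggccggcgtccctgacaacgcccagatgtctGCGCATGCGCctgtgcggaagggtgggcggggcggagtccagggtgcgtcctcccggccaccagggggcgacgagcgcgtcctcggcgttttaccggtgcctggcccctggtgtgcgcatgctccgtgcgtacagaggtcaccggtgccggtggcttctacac
Sdha: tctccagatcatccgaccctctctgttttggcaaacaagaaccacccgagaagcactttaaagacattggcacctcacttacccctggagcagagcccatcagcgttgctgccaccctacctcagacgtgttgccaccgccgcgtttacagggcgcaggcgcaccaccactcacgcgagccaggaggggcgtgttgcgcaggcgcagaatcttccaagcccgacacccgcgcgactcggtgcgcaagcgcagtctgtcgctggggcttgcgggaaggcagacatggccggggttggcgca
Cox8b: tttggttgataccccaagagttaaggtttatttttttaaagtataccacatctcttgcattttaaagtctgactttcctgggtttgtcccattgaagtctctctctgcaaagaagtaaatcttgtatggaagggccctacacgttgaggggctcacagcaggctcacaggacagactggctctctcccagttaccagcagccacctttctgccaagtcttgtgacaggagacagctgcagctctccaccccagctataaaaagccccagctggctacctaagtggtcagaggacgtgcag

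Cox6a1 and Ndufaf4 hold the NRF1 letters as GCGCATGCGC, which matches on both strands and counts as 2 overlapping matches, and Cox6a1 also holds 1 ETS match. Atp5h holds 1 ETS match and Ndufs7 1 YY1 match. The Sdha and Cox8b windows hold none of the 4 motifs, and Cox8b has the letters TATAAA, which Ndufs7 holds as well. These letters and those of SP1 are not in capitals. The 10 members with the NRF1 letters had correlations with the other members from 0.176 for Ndufaf4 to 0.954 for Ndufa8, and Atp5h, Ndufs7 and Ndufa4, with the highest correlations of all, do not hold them. Among the 77 members with a promoter in the table, 13.0% held the NRF1 letters, against 3.13% of 12665 other genes. The ETS letters were in 23.4% of members and 15.5% of other genes, the YY1 letters in 9.09% and 2.65%, and the estrogen-related receptor letters in 5.19% and 1.09%. The letters GGGCGG (SP1) ran the other way, in 45.5% of members and 61.1% of other genes, and TATAAA was in 7.79% and 7.63%. These shares describe letters in the windows, not binding.

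Respiratory chain mRNAs were abundant. Together the members took 1.34% to 1.86% of all counts in a library. On a scale of CPM per kilobase of mRNA, which allows genes to be compared, the 3 highest were complex IV subunits. Cox8a stood at 1090 ± 151, Cox4i1 at 1070 ± 147 and Cox6a1 at 998 ± 134 (SD over 24 libraries), with overlapping ranges. Their order within libraries was not tested. Atp5b, the catalytic beta subunit of ATP synthase, followed at 730 ± 41.6 and the alpha subunit Atp5a1 stood at 355 ± 16.3. The median over subunits was 408 CPM per kilobase for 12 complex IV genes with Ndufa4, 315 for 14 ATP synthase genes, 258 for 8 complex III genes, 134 for 35 complex I genes (without Ndufs5, whose counts may be split with a copy) and 102 for 4 complex II genes.

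Among catalytic and core subunits, Atp5b was highest of the ATP synthase genes and Sdha of the complex II genes, while those of complexes I and III were not the highest of theirs. In complex I the iron-sulfur subunit Ndufs1 was lowest of the 35 at 41.9 ± 2.39 CPM per kilobase, next to the accessory subunit Ndufs4 at 46.0 ± 4.98, and the NADH-binding flavoprotein Ndufv1 stood at 122 ± 10.6, while the accessory subunit Ndufb9 reached 322 ± 41.2. In complex II the flavoprotein Sdha (134 ± 6.97) and the iron-sulfur subunit Sdhb (133 ± 14.1) were level with each other. In complex III the core proteins Uqcrc1 and Uqcrc2 stood at 195 ± 17.1 and 97.8 ± 5.74 and the Rieske protein Uqcrfs1 at 106 ± 7.95 CPM per kilobase. The regulatory and structural complex IV subunits Cox5b, Cox5a, Cox6b1 and Cox7a2 stood at 365 ± 48.4, 280 ± 31.7, 409 ± 54.7 and 241 ± 32.6. The 9 assembly factors had a median of 15.2, from 7.34 for Ndufaf6 to 32.0 for Ndufaf2, all below every subunit of the sets above.

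Complex IV exists in tissue forms that exchange 1 isoform of a subunit for another. In these libraries the brain-typical form was nearly the sole one. Per kilobase, Cox4i2 made up 0.349% ± 0.0957 of the 2 Cox4 isoforms, Cox8b 0.409% ± 0.265 of the Cox8 isoforms, Cox6a2 1.29% ± 0.320 of the Cox6a isoforms, Cox6b2 2.46% ± 0.745 of the Cox6b isoforms and Cox7a1 3.14% ± 1.12 of Cox7a1 and Cox7a2 (SD, n = 24). Ndufa4l2 made up 1.28% ± 0.297 of the Ndufa4 pair. Cox6a2, Cox7a1 and Cox8b are the forms of heart and skeletal muscle, Cox6b2 is known from testis, and Cox4i2 and Ndufa4l2 are known from lung and from pericytes and respond to low oxygen.

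ATP synthase subunit c, whose mature protein is the same from 3 genes, came from all of them: Atp5g3 gave 40.4% ± 1.15, Atp5g1 30.0% ± 0.686 and Atp5g2 29.6% ± 1.31 of the sum per kilobase. This division differed little between groups, the Atp5g3 share being 40.4% ± 0.906 in KO stress, 40.1% ± 1.48 in WT stress, 40.5% ± 1.39 in KO control and 40.5% ± 0.984 in WT control libraries. The shares depend on the length of the gene model, which the SD does not cover. The model of Atp5g2 has 441 nucleotides, 438 of them coding, against 596 and 408 for Atp5g1 and 714 and 423 for Atp5g3. If that model lacks untranslated sequence, the Atp5g2 share is too high. Summed over all libraries, Atp5g3 had 215535, Atp5g1 133691 and Atp5g2 97917 counts.

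Some counts may be split with copies of a gene. Ndufs5 stood at only 6.98 ± 1.47 CPM per kilobase, and the near-identical BC002163, counted separately, had 65.7 ± 36.4 CPM, from 23.6 to 134, so values for Ndufs5 are uncertain. Cox7c and Uqcr10 also have near-identical copies in the count table, at up to 24.3 and 3.92 CPM. In all, 23 of the 91 members with a gene model have an annotated copy with at least 95% identity over at least 80% of the coding sequence, and 12 overlap exons of another counted gene by at least 100 bases.

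The members varied together. Across the 24 libraries the mean log2 CPM of the 92 members ran from 6.38 in WT control 1 to 6.92 in WT stress 1, and the median correlation of a member with the mean of the other 91 was r = 0.889. There were 62 members with r above 0.8, led by Atp5h (0.974), Ndufs7 (0.969) and Ndufa4 (0.966). The corresponding median over all genes tested was r = -0.0489, and 539 other genes exceeded 0.8. The first principal component held 46.7% of the variance of the members. Median r was 0.91 for the Atp5 genes, 0.904 for complex III, 0.89 for complex I, 0.825 for complex IV and 0.702 for complex II. These correlations are over libraries that share preparation and scaling to total counts, and are given as a description.

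There were 15 members with r below 0.5. Over all 24 libraries Ndufs1 (r = -0.498) and Sdha (r = -0.354) varied against the rest, and Atp5s (-0.129), Cox8b (-0.0925), Cox6b2 (-0.0743) and Uqcrc2 (0.0665) did not follow it. For Ndufs1 the classes differed. With the mean of mitochondrial import and carrier genes, Ndufs1 had r of 0.115 in high-numbered and -0.624 in low-numbered libraries. Sdha had -0.414 and -0.35 with the same genes. Exons of Ndufs1 overlap those of the counted gene Ino80dos. Sdha stood at 386, 355, 388, 374 and 424 CPM in the 5 KO stress libraries. It had a lowest, median and highest value of 360, 380 and 409 CPM in WT stress, 343, 385 and 402 CPM in KO control and 375, 398 and 426 CPM in WT control libraries. The lowest Sdha value of the KO stress group was in KO stress 2, the library with the highest mean of the 92 members in that group, and all 4 groups overlapped. Sdhb, the partner of Sdha in the same enzyme, instead followed the other members (r = 0.895).

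**Figure D1:**
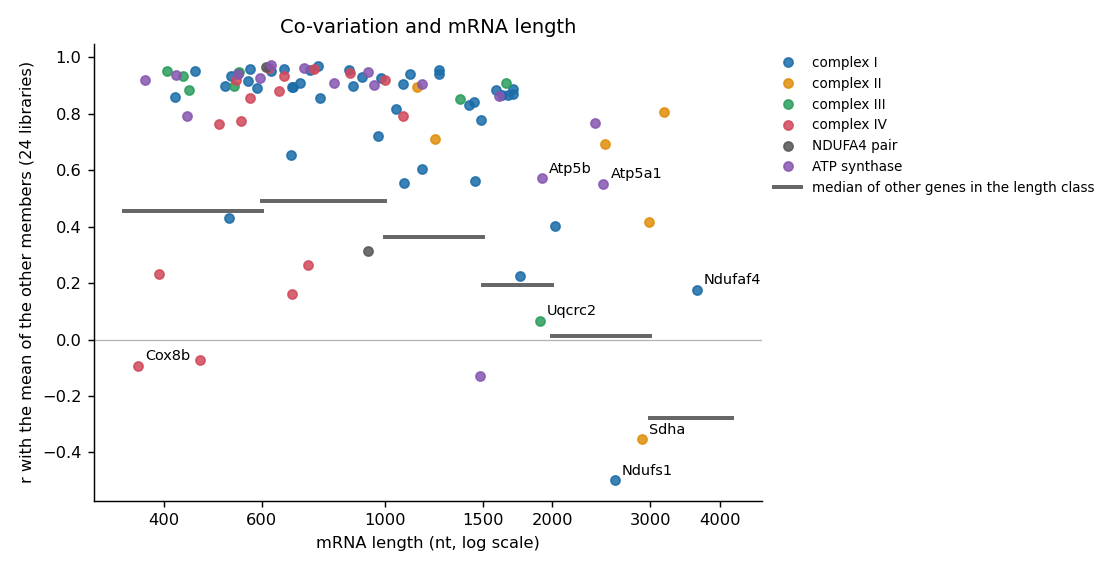
Correlation of each of 91 members with the mean of the other members over 24 libraries (y axis) against the length of its mRNA in nucleotides (x axis, log scale), coloured by complex. Horizontal bars give the median of the other genes tested in each length class, and members with mRNA under 1000 nucleotides mostly lie near r = 0.9 while Ndufs1 and Sdha lie below 0.

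Median r was lower among members with longer mRNAs, though both kinds departed. Of the 15 members with r below 0.5, 7 have mRNA under 1000 nucleotides, namely the 6 low isoforms and Ndufs5, and the other 8 have from 1485 (Atp5s) to 3632 nucleotides (Ndufaf4). Median r was 0.908 for 26 members with mRNA of up to 600 nucleotides, 0.929 for 28 from 600 to 1000, 0.837 for 18 from 1000 to 1500, 0.866 for 10 from 1500 to 2000 and 0.417 for 7 from 2000 to 3000 nucleotides. The 2 longest, Sdhc (3171 nucleotides) and Ndufaf4, had r of 0.806 and 0.176, a median of 0.491. The same slope ran through the rest of the transcriptome: other genes in these classes had median r of 0.454, 0.491, 0.362, 0.192 and 0.0119, and 7092 other genes with mRNA over 3000 nucleotides had -0.279. Spearman's rho of length with r was -0.379 over 91 members, -0.564 over 84 without Ndufs5 and the 6 low isoforms, and -0.578 over 15165 other genes, all across genes, which are not independent replicates. In each length class of 2 or more members the members' median was above that of the other genes. The plot of correlation against mRNA length shows both.

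Other gene lists varied with the chain to different degrees. The mean log2 CPM of 83 cytosolic ribosomal protein genes correlated with that of the members at r = 0.910 and rho = 0.918 over 24 libraries (r = 0.886 without the 2 libraries farthest from the median), and within classes at r = 0.868 in 13 high-numbered and 0.987 in 11 low-numbered libraries. For 27 mitochondrial import and carrier genes r was 0.970, for 44 assembly factors and electron carriers outside the prefixes 0.956, for 16 glycolytic genes 0.749 and for 19 genes of the citrate cycle and pyruvate dehydrogenase 0.459. For 20 regulators of mitochondrial biogenesis it was -0.270.

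**Figure D2:**
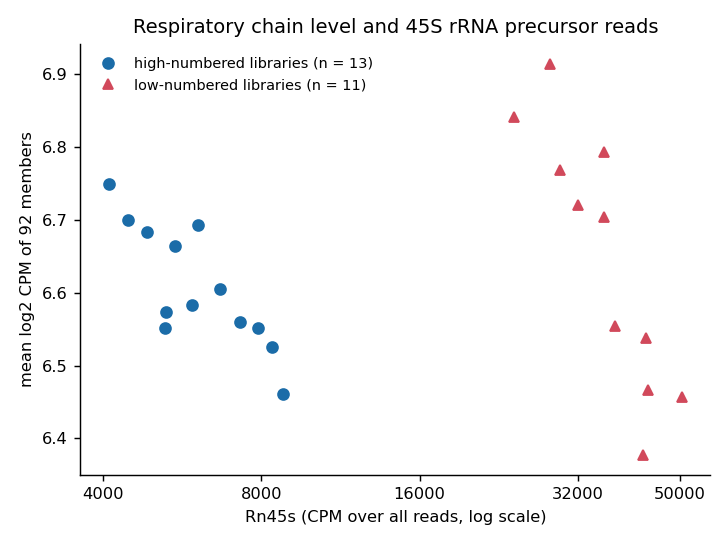
Mean log2 CPM of the 92 members (y axis) against Rn45s in CPM over all reads (x axis, log scale) in each of 24 libraries, by library number class. Within each class the members' mean is lower where Rn45s is higher, with r = -0.815 in the high-numbered and -0.878 in the low-numbered class.

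Within each class the members' level was lower where Rn45s was higher. Pearson's r between the members' mean and log2 CPM of Rn45s was -0.815 (rho = -0.775) in 13 high-numbered and -0.878 (rho = -0.909) in 11 low-numbered libraries, and -0.665 and -0.894 without the 2 farthest libraries. Over all 24 libraries r was -0.0362, since the classes lie apart on the Rn45s axis. Both measures are shares of the same library. At the ends of the low-numbered class, KO control 1 had 24240 CPM of Rn45s and a members' mean of 6.84, and KO control 2 had 50450 CPM and a mean of 6.46. The spread of the members' mean was 0.0832 in high-numbered and 0.178 in low-numbered libraries (SD of log2 CPM), and the median correlation of a member with the other members was 0.833 and 0.95.

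**Figure D3:**
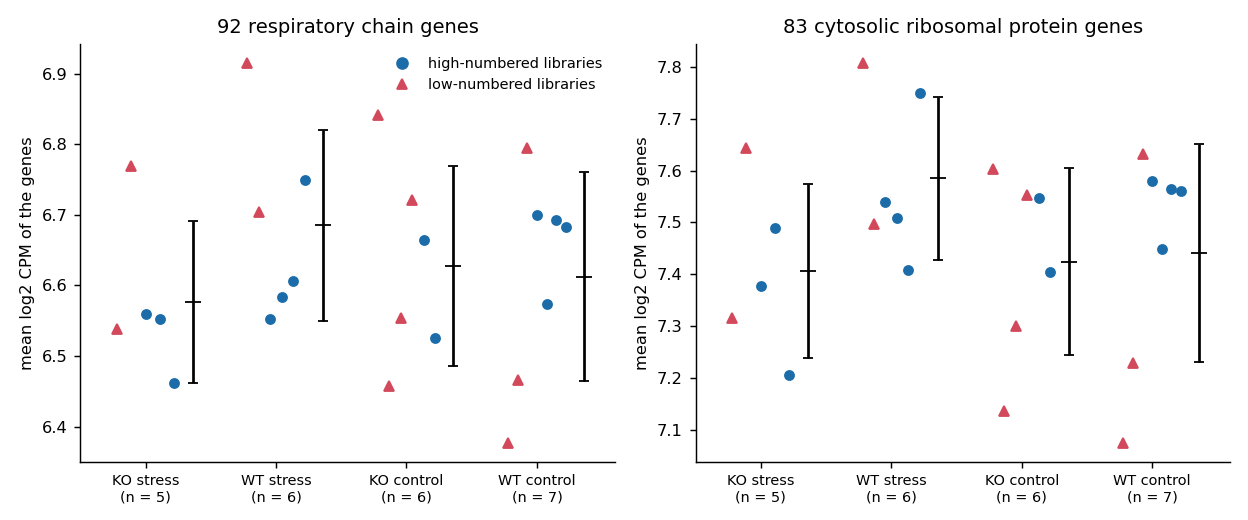
Mean log2 CPM of the 92 respiratory chain genes (left) and 83 cytosolic ribosomal protein genes (right) in each library, by group, with library number class shown by colour and shape and the mean and SD of each group in black. The groups overlap in both panels, and the members' mean is 6.58 in KO stress, 6.69 in WT stress, 6.63 in KO control and 6.61 in WT control libraries.

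Social stress changed no respiratory chain gene past the threshold in WT mice. The mean log2 CPM of the members was 6.69 ± 0.135 in 6 WT stress and 6.61 ± 0.147 in 7 WT control libraries (SD), from 6.55 to 6.92 and from 6.38 to 6.79, so the groups overlapped. By edgeR's quasi-likelihood test with Benjamini-Hochberg adjustment over 16313 genes, 0 of 92 members passed an adjusted p of 0.05, where 22 genes passed in all (0.135%). At an unadjusted p under 0.05 there were 3 members and 720 genes. The median was 0.08 over complex IV, 0.07 over complex III, 0.06 over complex I and the Atp5 genes and 0.01 over complex II. The median log2 fold change of all members was 0.06, with 75 of 92 members above 0, against a median of 0.00 over all genes tested and 0.13 over the ribosomal protein genes. In bulk tissue, fewer cells of a type and less RNA per cell cannot be told apart.

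The direction of this small median differed between the classes, and it was 0.01 without WT stress 1 and 0.02 without WT control 1. In the high-numbered class (4 WT stress and 4 WT control libraries) the median was -0.06 with 17 members above 0, and in the low-numbered class (2 and 3) it was 0.29 with 86 above 0. No member passed within either class, and 2 members in the high-numbered and 39 in the low-numbered class had an unadjusted p under 0.05. The members varied together, so neither these counts nor those above 0 are independent results. The shares over all genes are not set beside such counts here or below, so the counts show nothing particular to the members. In the low-numbered class the members' mean was 6.92 and 6.70 in WT stress 1 and 2, with 28370 and 35870 CPM of Rn45s, and 6.38, 6.47 and 6.79 in WT control 1, 2 and 3, with 42570, 43600 and 35840 CPM of Rn45s. The part of Rn45s or of what it stands for in the median was not tested.

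The stress effect of WT mice in high-numbered minus low-numbered libraries had a median of -0.35 over the members and -0.32 over the ribosomal protein genes. Over the members it was -0.50 without WT control 3 and -0.21 without WT stress 1, the ends of the range over single libraries left out. By edgeR's test 0 members passed, where 7 of 16313 genes did (0.0429%), and 27 members had an unadjusted p under 0.05. Since the members varied together, the 27 are not independent results, and the count over all genes is not set beside them. The smallest p values belonged to Ndufs5 (-0.94 ± 0.32), the flavoprotein Ndufv1 (-0.38 ± 0.13), the supercomplex factor Cox7a2l (-0.45 ± 0.17) and Sdhb (-0.41 ± 0.15, log2 and SE). Voom with quality weights called 4 members, Ndufs7, Ndufv1, Ndufv2 and Sdhb, among 177 genes, and DESeq2 called no member.

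The member nearest the threshold after stress in WT mice was Ndufa4l2, a paralogue of Ndufa4 that is induced by low oxygen and marks pericytes in mouse brain. Ndufa4l2 stood at a lowest, median and highest value of 5.17, 6.10 and 6.50 CPM in WT stress libraries, against 2.82, 4.15 and 5.21 CPM in WT control libraries. All but 1 of the stress libraries lay above every control library. The log2 fold change was 0.56 ± 0.14 (SE) with an adjusted p of 0.161 by edgeR. DESeq2 called it, with an adjusted p of 0.0291, and over all alternatives the adjusted p ran from 0.0291 to 0.655 and the fold change from 0.47 to 0.63. In KO mice Ndufa4l2 was 4.85, 4.56, 4.73, 6.14 and 6.58 CPM in the 5 stress libraries, against 3.46, 4.58 and 5.30 CPM (lowest, median, highest) in control libraries, a log2 fold change of 0.26 ± 0.15 with an edgeR adjusted p of 0.988. KO stress 4 and 5 lay above all KO control libraries, and the other 3 lay within them.

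Transcripts of blood cells and vessels moved with Ndufa4l2. Its log2 CPM correlated with the mean of 4 red blood cell markers at r = 0.787 and rho = 0.788 over 24 libraries (permutation p = 2e-05 for each, adjusted p = 0.00117 and 0.0013 over 78 relations of 6 low isoforms with 13 marker lists), at r = 0.747 without the 2 farthest libraries, and at 0.817 and 0.686 within the high-numbered and low-numbered classes. For 6 neutrophil and monocyte markers r was 0.702 and rho 0.683 (permutation p = 0.00011 and 0.0003, adjusted p = 0.00286 and 0.00368), r without the 2 farthest 0.686, and 0.761 and 0.466 within the classes. For 7 endothelial markers r was 0.635 and rho 0.521 (permutation p = 0.00091 and 0.0097, adjusted p = 0.0101 and 0.0585), r without the 2 farthest 0.53, and 0.741 and 0.206 within the classes. For 9 pericyte and smooth muscle markers r was 0.595 and rho 0.558 (permutation p = 0.0022 and 0.0053, adjusted p = 0.0147 and 0.0347), r without the 2 farthest 0.596, and 0.621 and 0.375 within the classes. The red blood cell markers (4 of 6 tested, with Alas2 the highest, Hbb-bt at 0 and Hbb-bs with 31 counts in all) summed to 32.7 to 58.7 CPM in WT stress and 5.58 to 11.5 CPM in WT control libraries, and to 14.6 to 48.0 CPM in KO stress and 4.41 to 12.3 CPM in KO control libraries. The neutrophil and monocyte markers (6 of 7 tested) had a median sum of 30.6 CPM and a highest of 59.5 CPM in WT stress libraries, against 7.89 and 11.8 CPM in WT control libraries, and of 13.7 and 35.6 CPM in KO stress libraries, against 10.1 and 11.4 CPM in KO control libraries. The lowest stress library lay within the range of its controls in both genotypes. The endothelial markers, all 7 tested, summed to 215 to 309 CPM in WT stress and 190 to 234 CPM in WT control libraries, and to 191 to 337 CPM in KO stress and 184 to 225 CPM in KO control libraries. The pericyte markers, all 9 of which were tested, summed to 183 to 266 CPM in WT stress and 171 to 233 CPM in WT control libraries, and to 191 to 271 CPM in KO stress and 176 to 232 CPM in KO control libraries. The permutations shuffled all 24 libraries without regard to group or class, so these p-values also take in differences between groups. By summed CPM, the red blood cell markers were higher in every stress library than in any control library of the same genotype. On the mean log2 CPM used for the correlations this held in WT but not in KO mice. There KO stress 2 (0.53) lay below KO control 5 (0.91). The part of these 4 marker lists in the Ndufa4l2 values was not tested.

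Cox4i2, the low-oxygen isoform of Cox4, had the second smallest p in WT mice. It stood at 2.85, 3.003 and 4.01 CPM (lowest, median, highest) in WT stress and 1.499, 2.08 and 2.95 CPM in WT control libraries, which overlapped, and the log2 fold change was 0.57 ± 0.19 with an edgeR adjusted p of 0.671. The common isoform Cox4i1, at 834 ± 131 CPM in WT stress and 782 ± 101 CPM in WT control libraries (n = 6 and 7), did not pass. The assembly factor Ndufaf4 (0.14 ± 0.06) and the accessory subunit Ndufs6 (0.19 ± 0.11, log2 and SE) came next, both with an adjusted p of 1.

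In KO mice stress likewise changed no member past the threshold, and most values lay slightly below 0. The mean log2 CPM was 6.54, 6.77, 6.56, 6.55 and 6.46 in the KO stress libraries 1 to 5, against 6.46, 6.61 and 6.84 (lowest, median, highest) in KO control libraries, within which all 5 lay. By edgeR 0 of 92 members passed, where 1 of 16313 genes did (0.00613%), and 2 members had an unadjusted p under 0.05. DESeq2 and voom called no member either. The median log2 fold change was -0.07 with 11 of 92 members above 0, and all 8 complex III genes were below 0, against -0.03 over the ribosomal protein genes. The members' median was -0.11 in high-numbered and 0.01 in low-numbered libraries. Leaving out 1 library moved it between -0.13 without KO stress 2 and -0.03 without KO control 1, and it was -0.01 without the 3 libraries highest in thalamic transcripts.

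The smallest p values in KO mice were mixed in direction. Cox6b2 was 5.06, 3.99, 7.75, 5.59 and 6.05 CPM in the 5 KO stress libraries, against 3.25, 4.13 and 5.42 CPM (lowest, median, highest) in KO control libraries, with KO stress 3, 4 and 5 above all controls and a log2 fold change of 0.46 ± 0.21 (edgeR adjusted p = 0.988). KO stress 3 and 5 are libraries high in thalamic transcripts, while KO stress 4 had 195 CPM of them. With the thalamus and habenula markers Cox6b2 had r = 0.446 and rho = 0.423 (permutation p = 0.029 and 0.041, adjusted p = 0.104 and 0.158). With the oligodendrocyte markers r was 0.581 and rho 0.481 (permutation p = 0.0026 and 0.019, adjusted p = 0.0158 and 0.0909). Cox6b2 correlated with 10 choroid plexus markers at r = 0.628 and rho = 0.655 (permutation p = 0.0011 and 0.00064, adjusted p = 0.0106 and 0.00624), r without the 2 farthest 0.585, with 0.867 in the high-numbered and 0.0493 in the low-numbered class. The choroid plexus markers summed to 802 to 2070 CPM in KO stress and 31.8 to 1880 CPM in KO control libraries, and their part in the Cox6b2 values was not tested. The assembly factor Ndufaf1 was 21.3, 19.3, 19.1, 19.8 and 18.5 CPM in KO stress libraries, against 20.1, 22.3 and 24.5 CPM in KO control libraries. Its log2 fold change was -0.18 ± 0.08 with the same adjusted p, and 4 of 5 stress libraries lay below every control. Cox7c followed at -0.19 ± 0.11.

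**Figure D4:**
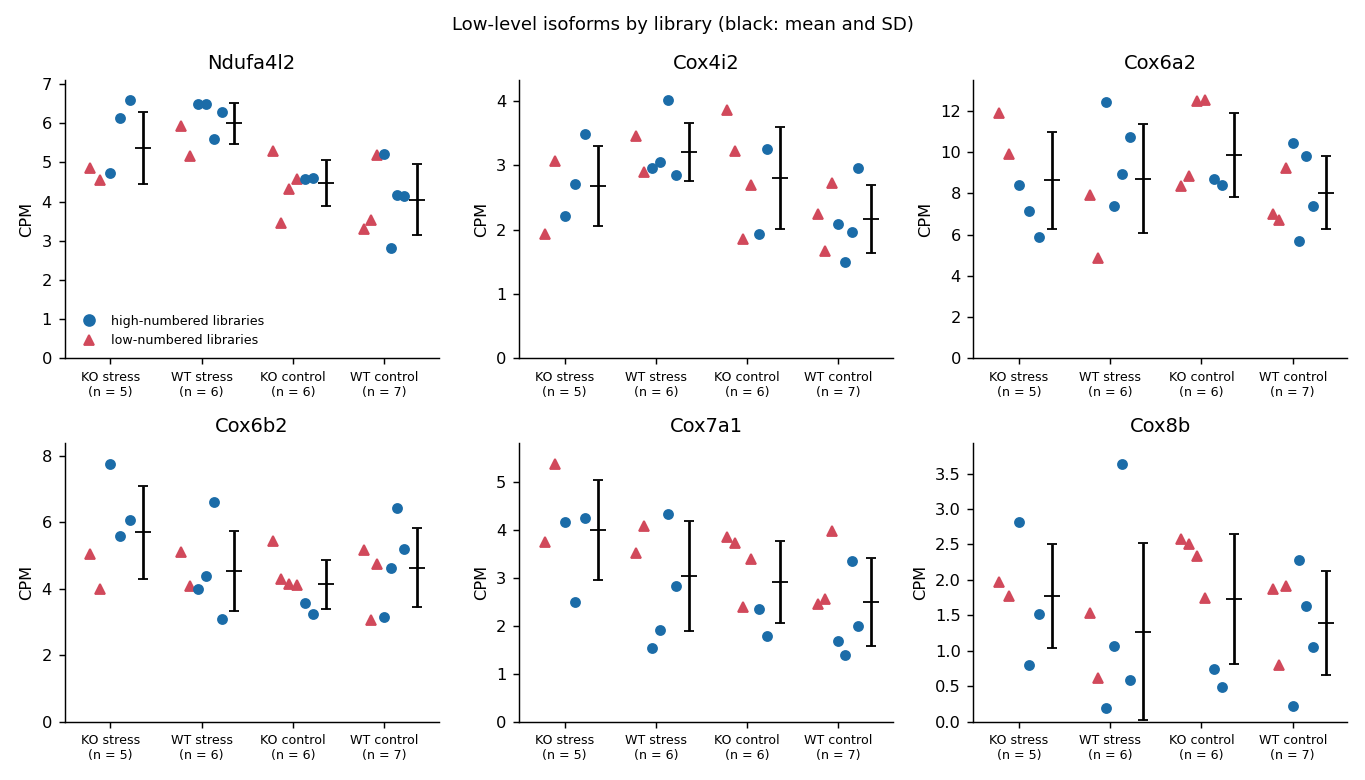
CPM (y axis, from 0) of 6 low isoforms in each library by group, with library number class shown by colour and shape and the mean and SD of each group in black. Ndufa4l2 averages 5.37 in KO stress, 5.99 in WT stress, 4.48 in KO control and 4.05 CPM in WT control libraries, while Cox8b runs from 0.193 to 3.64 CPM with overlap of all groups.

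The difference between the stress effects of KO and WT mice was not past the threshold for any member. By edgeR 0 of 92 passed in the interaction, where 0 of 16313 genes did (0%), 1 member had an unadjusted p under 0.05, and DESeq2 and voom called no member. The median over the members was -0.14, with 10 above 0, and that over the ribosomal protein genes -0.15. The members' median was -0.05 in high-numbered and -0.26 in low-numbered libraries, and -0.08 without WT stress 1. The smallest p values belonged to Cox4i2 (-0.63 ± 0.29), the complex I accessory subunits Ndufc1 (-0.28 ± 0.16) and Ndufa12 (-0.20 ± 0.12), and Cox6b2 (0.49 ± 0.28), all log2 with SE and with an adjusted p of 1.

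KO control and WT control libraries did not differ past the threshold in any member. By edgeR 0 of 92 members and 0 of 16313 genes passed (0%), no member had an unadjusted p under 0.05, and DESeq2 and voom called no member. The median log2 fold change was 0.01, with 51 of 92 members above 0, and it was from -0.04 without WT control 1 to 0.05 without KO control 2. The smallest p values belonged to Cox4i2 (0.37 ± 0.19), the complex II assembly factor Sdhaf2 (-0.09 ± 0.05), Cox6a2 (0.30 ± 0.19) and Ndufs1 (-0.08 ± 0.05), each with an adjusted p of 1.

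Under stress, the fold change of KO against WT libraries was below 0 in nearly all members, but none passed. The median log2 fold change was -0.13 with 87 of 92 members below 0, and it was -0.17 over the ribosomal protein genes, none of which was above 0. By edgeR 0 of 92 members passed, where 0 of 16313 genes did (0%), 5 members had an unadjusted p under 0.05, and DESeq2 and voom called no member. This comparison shares its libraries with both stress comparisons above. Because the members varied together across libraries, the counts of 87 and 5 members are not independent results. The shares over all genes are not set beside these counts either. The median was -0.12 in high-numbered and -0.17 in low-numbered libraries, from -0.18 without KO stress 2 to -0.07 without WT stress 1 when 1 library was left out.

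Among these, Cox8a was 527, 645, 509, 561 and 444 CPM in the 5 KO stress libraries, against 526.1, 635 and 723 CPM (lowest, median, highest) in WT stress libraries, with a log2 fold change of -0.24 ± 0.12. KO stress 3 and 5 lay below every WT stress library. The complex I subunit Ndufa5 was 121, 147, 120, 134 and 108 CPM in KO stress libraries, against 125, 139 and 186 CPM in WT stress libraries (-0.24 ± 0.11). Ndufb3 (-0.17 ± 0.08) and the complex III subunit Uqcrb (-0.20 ± 0.09) were the other members of smallest p, and the edgeR adjusted p of all 4 was 0.798.

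The 5 members above 0 in this comparison were Cox8b (0.48 ± 0.57), Cox7a1 (0.40 ± 0.28), Cox6b2 (0.33 ± 0.20), Atp5sl (0.01 ± 0.08) and Sdha (0.01 ± 0.06, log2 and SE). The first 3 are low isoforms of muscle and testis. Choroid plexus markers, all 10 tested and led by Ttr, summed to 802 to 2070 CPM with a median of 1560 CPM in KO stress libraries and to 22.5 to 2160 CPM with a median of 71.1 CPM in WT stress libraries. Thalamus and habenula markers summed to 195 to 1020 CPM in KO stress and 162 to 963 CPM in WT stress libraries. Their part in these values was not tested.

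**Figure D5:**
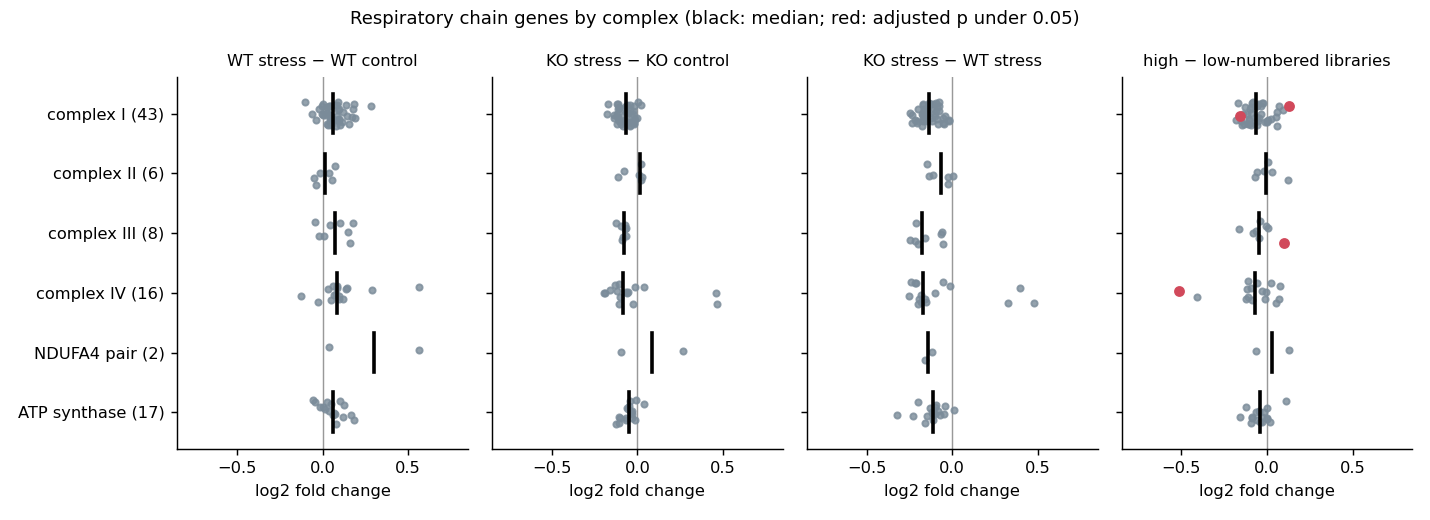
Log2 fold changes (x axis) of the 92 members by complex (rows, with the number of genes) in 4 comparisons, with black bars for the median of a complex and red points for members with an adjusted p under 0.05 by edgeR. Medians lie within 0.2 of 0 except for the Ndufa4 pair, and red points appear in the comparison of library number classes alone, for Ndufa10, Ndufaf5, Uqcrc2 and Cox7a1.

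A few members, 4 of 92, differed between the library number classes, in a fit with the 4 group means and the class. By edgeR 2 of 92 members were higher in high-numbered libraries, where 1826 of 16313 genes were (11.2%), and 2 were lower, where 1559 were (9.56%). Of the ribosomal protein genes 0 of 83 passed. The median log2 fold change was -0.06 over the members, from -0.09 without WT control 1 to -0.02 without WT stress 1. Uqcrc2, a core protein of complex III, was 178, 192 and 205 CPM (lowest, median, highest) in 13 high-numbered and 167, 175 and 193 CPM in 11 low-numbered libraries, with a log2 fold change of 0.10 ± 0.03 (adjusted p = 0.0383). The complex I subunit Ndufa10 was 151, 159 and 180 CPM in high-numbered and 134, 150 and 161 CPM in low-numbered libraries (0.13 ± 0.04, adjusted p = 0.0333).

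The other 2 members were lower in high-numbered libraries. The complex I assembly factor Ndufaf5 was 28.6, 32.8 and 35.9 CPM (lowest, median, highest) in high-numbered and 31.0, 36.7 and 41.6 CPM in low-numbered libraries, a log2 fold change of -0.16 ± 0.05 (edgeR adjusted p = 0.0307). The muscle isoform Cox7a1 was 1.39, 2.34 and 4.32 CPM in high-numbered and 2.40, 3.73 and 5.38 CPM in low-numbered libraries, a log2 fold change of -0.51 ± 0.18 (edgeR adjusted p = 0.0395). The classes overlapped in all 4 genes, and leaving out 1 library gave 0 to 4 calls. There were 0 calls without WT control 3, 1 without KO stress 4, WT stress 2, KO control 2, 5 or 6, or WT control 4, 5 or 6, and 2 without KO stress 1 or 2, WT stress 1 or 6, or KO control 4. Without the 3 libraries highest in thalamic transcripts there were again 4, with Cox8b in place of Uqcrc2. In the comparisons of stress and genotype no gene passed of the lists of assembly factors and electron carriers, citrate cycle, biogenesis regulators, glycolysis and import. Between the classes, 2 higher and 3 lower of 44 assembly factors and electron carriers, 1 and 0 of 19 citrate cycle genes, 1 and 5 of 20 biogenesis regulators, 1 and 3 of 16 glycolytic genes and 0 of 27 import genes passed.

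Markers of hippocampal pyramidal and granule neurons, all 11 tested, summed to 936 to 1810 CPM (median 1450) in high-numbered and 821 to 1040 CPM (median 927) in low-numbered libraries, and their part in the 4 class differences was not tested. Cox7a1 was lower where they were higher, at r = -0.645 and rho = -0.588 over 24 libraries (permutation p = 0.00078 and 0.0029, adjusted p = 0.0101 and 0.0206), r = -0.649 without the 2 farthest, with -0.562 in the high-numbered and -0.405 in the low-numbered class.

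Cox7a1 and Cox8b also varied with several other marker lists, those of neighbouring tissue among them. Cox7a1 correlated with 12 thalamus and habenula markers at r = 0.668 and rho = 0.714 over 24 libraries (permutation p = 0.0005 and 0.00016, adjusted p = 0.0078 and 0.00312), r = 0.619 without the 2 farthest, with 0.782 in the high-numbered class but -0.135 in the low-numbered class. With 8 oligodendrocyte markers r was 0.601 and rho 0.648 (permutation p = 0.0015 and 0.00082, adjusted p = 0.0119 and 0.00711), r without the 2 farthest 0.582, with 0.69 and -0.0872 in the high-numbered and low-numbered classes. With the hypothalamus markers r was 0.597 and rho 0.697 (permutation p = 0.0023 and 0.00033, adjusted p = 0.0147 and 0.00368), r without the 2 farthest 0.662, with 0.738 and 0.207 in the classes. The thalamus and habenula markers, all 12 tested, summed to 162 to 1020 CPM in high-numbered and 335 to 710 CPM in low-numbered libraries, and their part in the Cox7a1 difference was not tested. Cox8b, from 0.193 to 3.64 CPM and the most variable member (SD of log2 CPM 1.02, against a median of 0.172 over members), correlated with 10 choroid plexus markers at r = 0.765 and rho = 0.756 (permutation p = 3e-05 and 5e-05, adjusted p = 0.00117 and 0.0013), r = 0.707 without the 2 farthest, with 0.847 and 0.653 in the high-numbered and low-numbered classes. With the thalamus and hypothalamus lists Cox8b had r of 0.662 and 0.621 (permutation p = 0.00034 and 0.0014, adjusted p = 0.00663 and 0.0119). Cox6a2 and Cox4i2, in contrast, had no adjusted p under 0.05 with any of the 13 lists. With 7 striated muscle markers none of the 3 muscle isoforms passed. There r was -0.0184 for Cox7a1, -0.233 for Cox8b and 0.194 for Cox6a2 (permutation p = 0.93, 0.27 and 0.37, adjusted p = 0.963, 0.62 and 0.679). For Cox6a2 and 9 markers of GABAergic interneurons, in some of which it is known to be expressed, r was 0.095 and rho 0.0774 (permutation p = 0.66 and 0.72, adjusted p = 0.819 and 0.824). For Cox4i2 and the pericyte and smooth muscle markers r was 0.357 and rho 0.296 (permutation p = 0.087 and 0.16, adjusted p = 0.243 and 0.432).

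The stress effect of KO mice in high-numbered minus low-numbered libraries had a median of -0.11 over the members, with 17 above 0. It was -0.24 without KO stress 1 and 0.00 without KO stress 2, the ends of the range over single libraries left out. By edgeR 0 of 92 members and 0 of 16313 genes passed (0%), 1 member had an unadjusted p under 0.05, and DESeq2 and voom called no member. The smallest p values belonged to Cox6b2 (0.91 ± 0.42), Ndufs1 (0.22 ± 0.11), Ndufaf4 (0.23 ± 0.14) and Ndufaf3 (-0.35 ± 0.21), each with an adjusted p of 0.705.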

How the data were processed

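The authors deposited raw whole-number read counts per gene symbol for 24 hippocampal libraries. The tools STAR and DESeq2 and the build mm10 are listed per the submitters' processing notes, without versions. How reads were assigned to genes, and whether strand was used, is not stated there. Among libraries, 70.9% to 75.8% of counts from 1 to 10 were even, so a fragment may weigh as 2 reads. All columns of the count table matched 1 title each. Groups and replicate numbers came from the titles.

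Counts were tested with edgeR 4.0.16 (R 4.3.3; quasi-likelihood F test, robust, TMM factors, low-count filter with minimum count 10) in fits of 4 group means, of group means with library number class, and of group by class, over all 24 libraries. P-values were adjusted by Benjamini-Hochberg over all 16313 genes, with a threshold of 0.05. The SE is the size of the log2 fold change over the square root of F. DESeq2 1.42.0 and limma 3.58.1 (voom) gave alternatives. CPM used TMM-scaled library sizes except for Rn45s, and log2 CPM a prior count of 2. No 2 libraries agreed within sampling noise (smallest mean chi-square per gene 5.79). mRNA lengths and copies came from GENCODE release M21 with BLAST 2.17.0, promoters from RefSeq. The length is that of a single coding transcript per gene, the shortest where several ranked equally. Correlations of isoforms with marker lists used 100000 permutations, two-sided, of all 24 libraries without regard to group or class. The fits were tested on simulated counts, drawn independently for each gene, with changes of 1.5-fold, 2-fold or 4-fold in genes of higher counts. At 1.5-fold, 80.6% of changed genes were recovered for the WT stress effect and 71.6% for the KO stress effect. Smaller changes, and changes in genes of few counts, were not simulated.

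The members, gene lists and tests were chosen with earlier results of these data known. Named genes were the members past the threshold, or the 4 of smallest p where fewer than 4 passed, a set of core subunits and isoforms given whatever their values, and the extremes of each complex, which the fold change plot shows unnamed. Other members were named after their values were seen, for their level or correlation. For other lists counts alone are given. Replicate numbers did not pair libraries.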

Additional observations from a re-analysis of the deposited data

Results flagged for a closer look

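Single libraries stood apart from the rest of their group in 7 of the 172 combinations of a named gene, or the members' mean, with a group, where chance gives about 1 in 20. The measure is the gap to the nearest library over the range of the group, on log2 CPM. KO stress 2 was highest in Cox4i1 (950 CPM, against 664 to 720 CPM in the other KO stress libraries, ratio 0.775) and in Uqcrc1 (363 CPM, against 295 to 309, ratio 0.766). It is also the library with the highest members' mean of its group. WT stress 1, the highest library of all in the members' mean, was highest of its group in Cox6b1 (340 CPM, against 245 to 277, ratio 0.629). WT stress 6 was highest in Ndufa10 (180 CPM, against 150 to 158, ratio 0.726) and in Sdhaf2 (49.2 CPM, against 44.2 to 45.7, ratio 0.692). KO control 2, the library with the most Rn45s, was lowest in Ndufa10 (134 CPM, against 156 to 170, ratio 0.633), and WT control 2 was lowest in Ndufs5 (2.03 CPM, against 3.14 to 4.13, ratio 0.612).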

How the results depend on the processing

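The count of members past the threshold stayed at 0 under every alternative run for the KO stress effect, the interaction, both genotype comparisons and the KO class difference. For the WT stress effect DESeq2 called 1 (Ndufa4l2, adjusted p 0.0291), with 59 genes in all against 22 by edgeR, and for the class difference of the WT effect voom called 4. Over all genes DESeq2 called 7 for the KO stress effect, where edgeR called 1, 3 for KO against WT control, where edgeR called 0, and 35 for the class difference of the WT effect, where edgeR called 7 and voom 177. Between classes 34 genes passed with the replicate block and 3385 without it. Between library classes the 4 calls became 0 to 4 when 1 library was left out, 3 with RLE size factors or no filter, 6 with voom and 0 with the replicate block, where Cox7a1 was -0.95 and Uqcrc2 0.13. Only replicate numbers 3 and 4 hold libraries of both classes, so with the block the class difference rests on them. In number 3 both control libraries are low-numbered and both stress libraries high-numbered. The block is therefore a weak check of the class difference. Same-numbered libraries of different groups correlated at -0.43 to 0.489 (median 0.117, 33 pairs), and 3 of 24 correlated best with their own number, so the number was not taken as a pairing; the replicate block changed no other count of members. The interaction for Cox6b2 reversed to -0.0716 in low-numbered libraries, and the cause was not tested. The median of the members for the WT stress effect ran from -0.06 in high-numbered to 0.29 in low-numbered libraries, and was 0.00 with voom. In the high-numbered class alone edgeR had 4 and 4 WT libraries, and in the low-numbered class 2 and 3, which limits both. The lowest members, such as Cox8b, rest on few counts.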
